A study of Mus musculus with 18 samples.

Results

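Heat shock proteins were followed in microglia, the resident macrophages of the brain, together with the factor that regulates their genes. The group was defined by 10 gene symbols, and a gene was read from the probe set that carries its symbol alone and has the highest mean over all arrays. Of the 10 genes, 8 were measured among 22180 genes in all: Hspa1a, Hspa1b, Dnajb1, Hsph1, Hsp90aa1, Hspa8, Hspa5 and Hspb1. Hsp90ab1 and Hsf1, which encodes the factor itself, were not analysed here. The microglia came from untreated C57Bl/6 mice, and each of 18 arrays measured one sample. Corpus callosum, a white matter tract, and cortex were each sampled on postnatal days 3 (P3) and 7 (P7) and in adult mice, with 3 arrays per group. By the protocol in the labels, all samples were CD45+, CD11b+, Gr1- cells sorted after a Percoll gradient. The labels do not give the sex of the mice or their number per array, so the p-values measure only the spread between these samples.

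Heat shock proteins are chaperones, which bind unfolded proteins and help them to fold or to be degraded. Cells hold constitutive forms, such as HSC70 from Hspa8, at a steady level. Inducible forms, such as HSP70 from Hspa1a and Hspa1b, are transcribed within minutes of heat or of other protein damage, when Hsf1 protein trimerises and binds heat shock elements, which are inverted repeats of the letters GAA. The endoplasmic reticulum (ER) has its own HSP70, BiP from Hspa5, which is induced by the unfolded protein response instead. In microglia, transcripts of Hspa1a and Hspa1b and immediate early transcripts are also known to increase while tissue is dissociated into single cells.

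The sequences upstream of 4 genes are given. They show which members have nearly the same promoter sequence and which carry the exact letters of a heat shock element. They are RefSeq windows of 300 bases in the mouse assembly GRCm38.p6, 250 before and 50 after the transcription start, and windows were matched for 6 of the 8 measured genes. Hspa1a lies at chr17:34972107-34972406 and Hspa1b at chr17:34959189-34959488, both on the minus strand, and the windows of these neighbouring gene copies had the same base at 296 of 300 positions. Hsph1 lies at chr5:149636287-149636586 on the minus strand and Hspa5 at chr2:34771840-34772139 on the plus strand. Capitals mark exact matches to GAANNTTC or TTCNNGAA, which are heat shock elements of the shortest kind, to the 3-repeat form (GAANNTTC followed by NNGAA), and to the ER stress element (CCAAT and CCACG parted by 9 bases of any kind). Each was searched on both strands, and the shorter motifs lie within the 3-repeat one.

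Hspa1a: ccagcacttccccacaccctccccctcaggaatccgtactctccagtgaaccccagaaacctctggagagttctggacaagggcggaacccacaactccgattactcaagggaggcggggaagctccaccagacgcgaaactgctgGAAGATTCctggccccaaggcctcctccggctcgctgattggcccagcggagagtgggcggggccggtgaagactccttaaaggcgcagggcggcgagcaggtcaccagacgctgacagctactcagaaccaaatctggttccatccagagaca

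Hspa1b: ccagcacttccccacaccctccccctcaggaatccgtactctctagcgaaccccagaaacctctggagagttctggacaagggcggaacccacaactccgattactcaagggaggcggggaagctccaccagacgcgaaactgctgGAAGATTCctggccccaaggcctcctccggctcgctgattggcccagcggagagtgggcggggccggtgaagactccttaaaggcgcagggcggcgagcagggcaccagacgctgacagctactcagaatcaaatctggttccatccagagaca

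Hsph1: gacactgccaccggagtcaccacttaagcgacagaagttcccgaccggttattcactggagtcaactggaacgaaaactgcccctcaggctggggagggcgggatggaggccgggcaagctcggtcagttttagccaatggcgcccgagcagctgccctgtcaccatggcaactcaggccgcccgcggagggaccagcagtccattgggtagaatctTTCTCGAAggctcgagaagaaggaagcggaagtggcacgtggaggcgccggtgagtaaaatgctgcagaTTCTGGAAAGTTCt

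Hspa5: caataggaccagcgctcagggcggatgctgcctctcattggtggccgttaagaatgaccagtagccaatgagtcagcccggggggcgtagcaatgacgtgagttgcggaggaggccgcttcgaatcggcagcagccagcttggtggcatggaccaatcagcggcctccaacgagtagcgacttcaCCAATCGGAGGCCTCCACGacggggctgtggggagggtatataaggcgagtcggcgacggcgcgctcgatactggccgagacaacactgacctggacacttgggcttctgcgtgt

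The Hspa1a and Hspa1b windows each held the match GAAGATTC, which begins at position -104 from the start. The Hsph1 window held TTCTCGAA at -33 and the 3-repeat element TTCTGGAAAGTTC at 37, counting the first transcribed base as 1. Hspb1 had 2 matches to GAANNTTC, at -117 and -97. Neither Dnajb1 window held any of these exact letters, which says nothing of elements elsewhere or of imperfect ones. The Hspa5 window held no exact match to a heat shock element, with the same limit, and 1 match to the ER stress element, at -65. Of all 32851 windows, 7.86% held GAANNTTC, 8.52% held TTCNNGAA, 0.603% held the 3-repeat element and 0.119% the ER stress element. A match describes the sequence and was not tested as a binding site.

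Values are levels on the log2 scale made by the robust multi-array average (RMA), so a difference of 1 is a doubling. Array medians over all probe sets lay between 5.58 and 5.74. Microglial identity transcripts were high in every group, with group means of 11.60 to 12.21 for the purinergic receptor gene P2ry12. Both adult replicate 1 arrays had the lowest mean correlation to the other arrays, 0.953 in corpus callosum and 0.9557 in cortex, against 0.9607 or more for every other array. P3 arrays carry another label prefix than P7 and adult arrays, so age and array set cannot be told apart between P3 and P7. Adult and P7 arrays share a prefix.

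The inducible HSP70 genes were the members called between adult and P7, by their probe sets of a single symbol. Hspa1a was 9.97-fold higher in adult than in P7 cortex and 6.98-fold higher in adult than in P7 corpus callosum, and Hspa1b was 5.71-fold and 4.31-fold higher. No other measured member passed between adult and P7, between P7 and P3 or between regions, at an adjusted p under 0.05 over all genes. Adult and P3 were not tested against each other within a region, and their array sets differ.

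Hspa1a, which encodes an inducible HSP70, had levels of 6.26, 8.37 and 8.11 on the adult corpus callosum arrays, against 4.73, 5.30 and 4.30 at P7. In cortex it had 8.65, 7.67 and 8.52 on the adult arrays, against 5.37, 4.65 and 4.87 at P7. All 6 adult arrays lay above all 6 P7 arrays, and corpus callosum replicate 1 was the lowest adult array. The difference was 2.80 ± 0.44 log2 units in corpus callosum (standard error, SE, here and after every difference; adjusted p 0.000157, limma) and 3.32 ± 0.44 in cortex (adjusted p 3.85e-05). The 95% intervals ran from 1.88 to 3.73 and from 2.39 to 4.24. Without adult corpus callosum replicate 1 the difference there was 3.46. At P3 the levels were 4.42, 5.23 and 4.78 in corpus callosum and 4.49, 5.37 and 5.61 in cortex, all below every adult array. The P3 and P7 levels lay below the array medians of the genes tested, 5.73 to 5.84. No test of signal against background was available there, which leaves the fold uncertain.

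Hspa1b, the second inducible HSP70 gene, had 6.41, 7.59 and 7.24 in adult corpus callosum, against 5.38, 5.19 and 4.34 at P7. In adult cortex it had 7.44, 7.39 and 7.71, against 4.97, 5.14 and 4.89 at P7. Here too no adult array overlapped a P7 array, and corpus callosum replicate 1 was again the lowest adult array. The difference was 2.11 ± 0.28 in corpus callosum (adjusted p 2.48e-05) and 2.51 ± 0.28 in cortex (adjusted p 4.36e-06). P3 levels ran from 4.79 to 5.42 over both regions. The proteins of Hspa1a and Hspa1b are nearly identical and the transcripts very similar, so hybridisation cannot fully assign the signal to one copy, and the probe sets are not independent measurements of HSP70 induction. A further probe set carries both symbols, so it was left out by the rule and assigns its signal to neither gene. It averaged 5.81 ± 0.41 in adult and 5.02 ± 0.27 in P7 corpus callosum, and 5.74 ± 0.26 in adult and 5.11 ± 0.13 in P7 cortex (SD, n = 3 each). Its differences, 0.80 ± 0.21 (adjusted p 0.0187 over all probe sets, limma) and 0.63 ± 0.21 (adjusted p 0.0986, which did not pass), were smaller than those of the single-symbol probe sets, so the fold between adult and P7 depends on the probe set.

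Called genes made up 6.56% of all genes on the higher side in corpus callosum and 4.05% in cortex. Against that background 2 of the 8 measured members were called higher and 0 lower in each region. The 2 were Hspa1a and Hspa1b, whose probe sets are not independent, so here and in the counts below they are not separate findings. The median difference of the 8 was 0.11 in corpus callosum and 0.17 in cortex, against 0.054 and 0.032 over all genes. With no overlap between the groups and a higher adult level there were 3 members in corpus callosum and 4 in cortex, where 17.7% and 13.7% of all genes did the same.

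**Figure D1:**
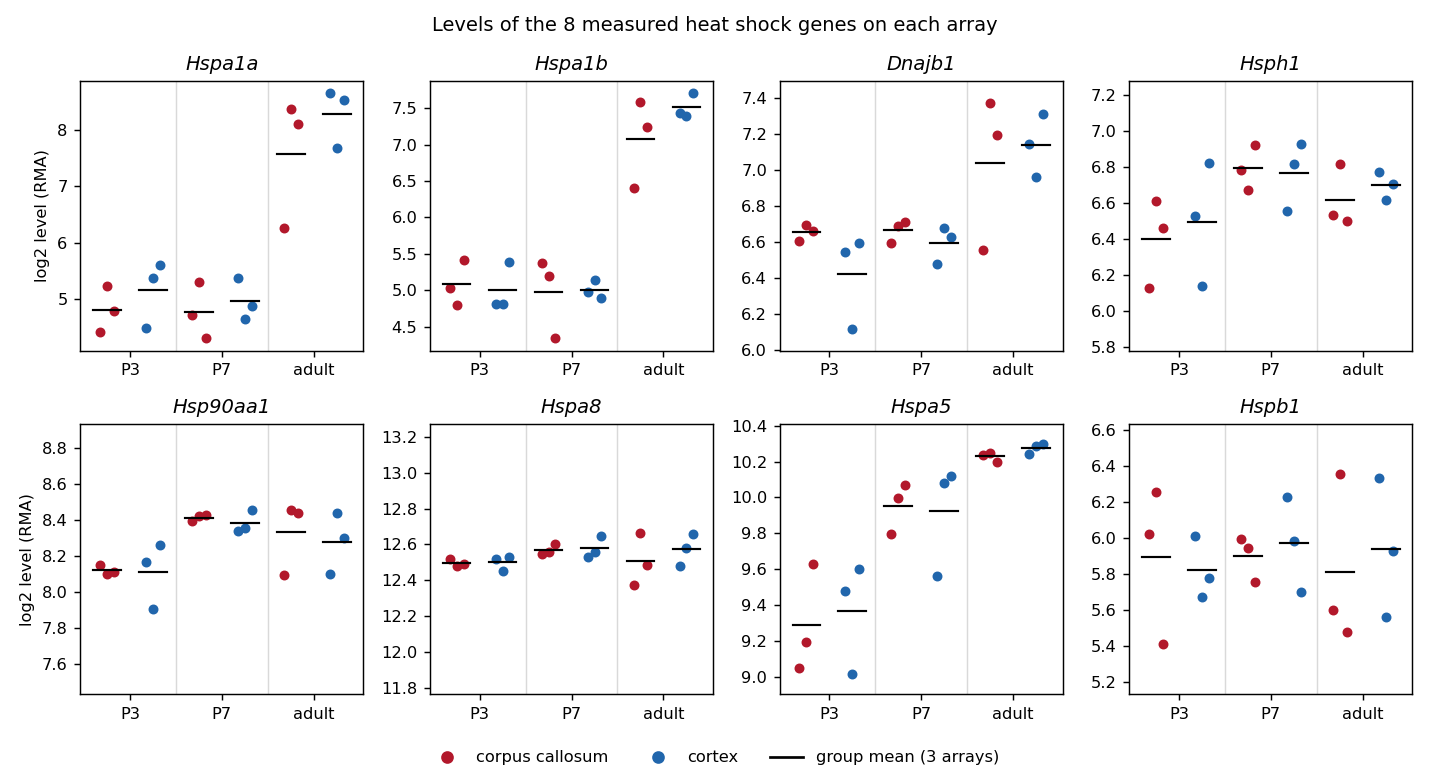
Log2 RMA level (y axis) of each of the 8 measured genes on every array, by age (x axis) and region (red corpus callosum, blue cortex), 3 arrays per group with black bars at group means. Each panel has its own y axis, spanning at least 1.5 log2 units. Hspa1a and Hspa1b stand at 6.26 or more on all adult arrays and at 5.61 or less on all P3 and P7 arrays, while Hspa8 stays between 12.37 and 12.66.

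Dnajb1, the HSP40 cochaperone that hands unfolded proteins to HSP70, had 6.55, 7.37 and 7.19 in adult corpus callosum, against 6.60, 6.69 and 6.71 at P7. In cortex it had 7.14, 6.96 and 7.31 in the adult, against 6.48, 6.67 and 6.63 at P7. The adult arrays lay above the P7 arrays in cortex but not in corpus callosum, where replicate 1 was below all of them. The difference was 0.38 ± 0.17 in corpus callosum (adjusted p 0.159) and 0.54 ± 0.17 in cortex (adjusted p 0.0549), so neither passed. Without adult corpus callosum replicate 1 the difference there was 0.62 with an adjusted p of 0.00824.

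Hsph1, the HSP110 that exchanges the nucleotide of HSP70, had 6.53, 6.82 and 6.50 in adult corpus callosum, against 6.78, 6.67 and 6.92 at P7, and the arrays overlapped. It differed by -0.18 ± 0.17 in corpus callosum (adjusted p 0.528) and by -0.068 ± 0.17 in cortex (adjusted p 0.892). Its 95% intervals ran from -0.53 to 0.17 and from -0.42 to 0.28. Hsp90aa1, the inducible cytosolic HSP90, had 8.10, 8.46 and 8.44 in adult corpus callosum, against 8.39, 8.42 and 8.43 at P7. It differed by -0.083 ± 0.13 in corpus callosum (adjusted p 0.724) and by -0.10 ± 0.13 in cortex (adjusted p 0.749), with 95% intervals of -0.35 to 0.18 and -0.37 to 0.16. In both regions adult replicate 1 had the lowest level of its group, 8.10.

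Hspa8, the constitutive HSC70, was near the top of the range of the arrays, with 12.37, 12.66 and 12.49 in adult corpus callosum, against 12.55, 12.56 and 12.60 at P7. It differed by -0.061 ± 0.10 in corpus callosum (adjusted p 0.755) and by -0.0054 ± 0.10 in cortex (adjusted p 0.988). Its 4 probe sets of a single symbol were not alike. The probe set with the lowest level averaged 9.79 ± 0.37 in adult corpus callosum and 10.46 ± 0.08 at P7 (SD, n = 3 each), a difference of -0.67 ± 0.23 that did not pass (adjusted p 0.0711 over all probe sets).

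Hspb1, the small heat shock protein HSP27, had 5.60, 6.35 and 5.47 in adult corpus callosum, against 5.99, 5.95 and 5.75 at P7, close to the array medians. Its brighter probe set differed by -0.090 ± 0.24 in corpus callosum (adjusted p 0.855) and by -0.030 ± 0.24 in cortex (adjusted p 0.973). The dimmer probe set ran the other way, with 5.26 ± 0.13 in adult corpus callosum and 4.79 ± 0.06 at P7 (SD, n = 3 each; 0.47 ± 0.18, adjusted p 0.11 over all probe sets), so the direction depends on the probe set and neither passed.

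**Figure D2:**
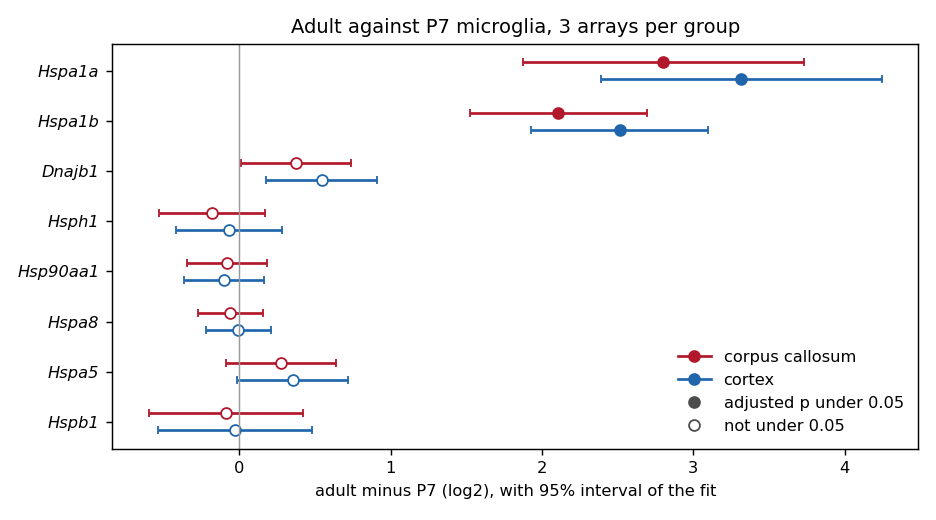
Difference between adult and P7 microglia (x axis, log2 units) for each of the 8 genes in corpus callosum (red) and cortex (blue), with 95% intervals of the fit from 3 arrays per group. Filled points passed at an adjusted p under 0.05. The intervals of Hspa1a and Hspa1b start at 1.52 or higher, and those of Hsph1, Hsp90aa1, Hspa8, Hspa5 and Hspb1 hold 0. Those of Dnajb1, which did not pass, start at 0.011 in corpus callosum and 0.18 in cortex.

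Hspa5, the ER chaperone BiP, passed neither between adult and P7 nor between P7 and P3, and adult against P3 was not tested. Its levels in corpus callosum were 9.05, 9.20 and 9.63 at P3, between 9.79 and 10.07 at P7 and 10.24, 10.25 and 10.20 in the adult. In cortex they were 9.48, 9.02 and 9.60 at P3, 9.56, 10.08 and 10.12 at P7 and 10.24, 10.29 and 10.30 in the adult. The group means ranked P3, P7 and adult in both regions, and the ages overlapped only between P3 and P7 in cortex. P7 exceeded P3 by 0.66 ± 0.17 in corpus callosum (adjusted p 0.0835) and by 0.56 ± 0.17 in cortex (adjusted p 0.154). Adult exceeded P7 by 0.28 ± 0.17 (adjusted p 0.324) and 0.35 ± 0.17 (adjusted p 0.269). The step from P3 to P7 coincides with the change of array set, and the span from P3 to adult crosses it too. Without corpus callosum P3 replicate 3, the highest of its group, the step there was 0.83 (adjusted p 0.0224).

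Between P7 and P3 no member was called in either region, where 0.739% and 0.884% of all genes were, although 3 members in corpus callosum and 2 in cortex had an unadjusted p under 0.05. Besides Hspa5 these were Hsph1 in corpus callosum (0.39 ± 0.17, adjusted p 0.287) and Hsp90aa1 in both regions (0.29 ± 0.13, adjusted p 0.298, and 0.27 ± 0.13, adjusted p 0.371). Hsp90aa1 had 8.39, 8.42 and 8.43 on P7 corpus callosum arrays, against 8.15, 8.10 and 8.11 at P3, with little spread within either group. Age and array set cannot be told apart in these values.

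The regional comparison asks whether microglia of the white matter tract differ from those of grey matter. No member was called between corpus callosum and cortex at P3, at P7 or in the adult, where 0.505%, 0.451% and 0.00451% of all genes were called, and none had an unadjusted p under 0.05 in limma. The differences ran from -0.35 (Hspa1a) to 0.23 (Dnajb1) at P3, from -0.19 (Hspa1a) to 0.070 (Dnajb1) at P7 and from -0.70 (Hspa1a) to 0.051 (Hsp90aa1) in the adult. In the adult, Hspa1a differed by -0.70 ± 0.44 (95% interval -1.63 to 0.23, adjusted p 0.701) and Hspa1b by -0.43 ± 0.28 (-1.02 to 0.15, adjusted p 0.709). Adult corpus callosum replicate 1 was the lowest adult array for both genes, and without both adult replicate 1 arrays, Hspa1a differed by 0.14.

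Whether the regional difference itself varied with age was tested as an interaction. No member was called at P7 against P3, where 0% of all genes were, in the adult against P7 (0.203%) or in the adult against P3 (0.18%), and none had an unadjusted p under 0.05. The rise of Hspa1a and Hspa1b in the adult was therefore not shown to differ between regions: the regional difference in the adult minus that at P7 was -0.51 ± 0.62 for Hspa1a and -0.40 ± 0.39 for Hspa1b (95% intervals -1.83 to 0.80 and -1.23 to 0.42).

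Among the other chaperone lists, most subunits of the cytosolic chaperonin were called lower in the adult. On the lower side, 10.7% of all genes were called between adult and P7 in corpus callosum and 6.15% in cortex. Of 8 subunits of TRiC, the cytosolic chaperonin that folds actin and tubulin, 7 fell in corpus callosum and 6 in cortex, with list medians of -0.65 and -0.56. Tcp1 averaged 7.81 in adult corpus callosum and 8.77 at P7 (-0.96 ± 0.11, adjusted p 8.28e-06). Of 8 mitochondrial chaperone genes 4 fell in each region and 4 did not pass, with list medians of -0.44 and -0.37. They included Hspd1, which encodes HSP60 (-1.21 ± 0.16 in corpus callosum, adjusted p 3.48e-05, and -0.86 ± 0.16 in cortex, adjusted p 0.00159), and Hspa9, the mitochondrial HSP70 (-1.09 ± 0.13, adjusted p 8.15e-06, and -0.54 ± 0.13, adjusted p 0.0098).

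Of 36 further cytosolic heat shock and cochaperone genes, 3 rose and 9 fell in adult corpus callosum, and 2 rose and 2 fell in adult cortex, with list medians of -0.18 and -0.033. The cortex counts are near the shares of all genes called there, 4.05% higher and 6.15% lower. In corpus callosum these shares were 6.56% and 10.7%. The HSP40 gene Dnajb4 rose in both (0.60 ± 0.14, adjusted p 0.00603, and 0.70 ± 0.14, adjusted p 0.00259), as did Dnajc7, a cochaperone that binds both HSP70 and HSP90 (0.67 ± 0.13, adjusted p 0.00112, and 0.49 ± 0.13, adjusted p 0.0189). Bag1, a nucleotide exchange factor, fell in both (-1.14 ± 0.12, adjusted p 2.6e-06, and -0.79 ± 0.12, adjusted p 0.000209). Dnajb14 fell most in corpus callosum (-1.19 ± 0.15, adjusted p 1.45e-05) and was not called in cortex. Its regional difference in the adult minus that at P7 was -1.05 ± 0.21 (adjusted p 0.0497). Bag3, which Hsf1 induces under heat shock together with HSP70, averaged 7.35 in adult and 7.55 in P7 corpus callosum (-0.19 ± 0.15, adjusted p 0.433) and 7.45 in adult and 7.26 in P7 cortex (0.19 ± 0.15, adjusted p 0.558). Of 5 genes for other heat shock factors and the inhibitor Hsbp1, none passed in either region. Hsf2 differed by -0.33 ± 0.12 (adjusted p 0.0663) and -0.18 ± 0.12 (adjusted p 0.481).

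Among 20 ER chaperone and unfolded protein response genes apart from Hspa5, 4 rose and 1 fell in adult corpus callosum, and 3 rose and 1 fell in adult cortex. The list medians were -0.20 and 0.014, so the calls do not describe the list as a whole. Of all genes, 6.56% were called higher and 10.7% lower in corpus callosum, and 4.05% and 6.15% in cortex. Those that rose in both included Herpud1, which takes part in ER-associated degradation (0.86 ± 0.12, adjusted p 3.62e-05, and 0.72 ± 0.12, adjusted p 0.000354), and Dnajb9, an ER cochaperone of BiP (0.65 ± 0.16, adjusted p 0.00647, and 0.87 ± 0.16, adjusted p 0.000867). Ddit3, the stress transcription factor CHOP, also rose (0.50 ± 0.13, adjusted p 0.0122, and 0.61 ± 0.13, adjusted p 0.00379). P4hb, a protein disulfide isomerase, fell (-0.74 ± 0.13, adjusted p 0.000575, and -0.49 ± 0.13, adjusted p 0.0237). Hsp90b1, the ER HSP90, averaged 11.88 in adult and 11.89 in P7 corpus callosum, a difference of -0.013 ± 0.12 (adjusted p 0.96).

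**Figure D3:**
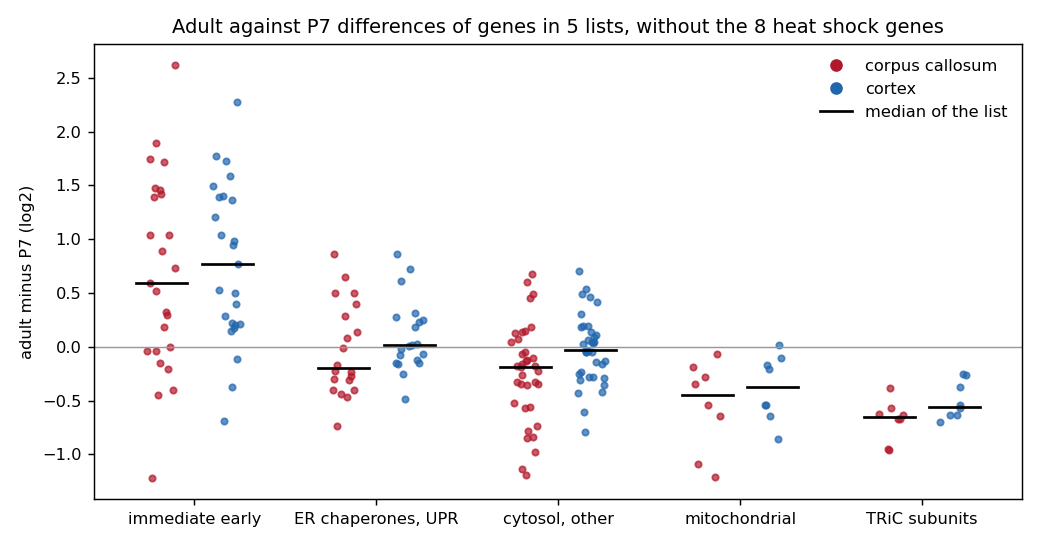
Difference between adult and P7 microglia (y axis, log2 units) of single genes in 5 lists (x axis), in corpus callosum (red) and cortex (blue), with black bars at list medians and the 8 heat shock genes left out. Points are spread sideways only to part them. The TRiC medians are -0.65 and -0.56, while those of the immediate early genes are 0.60 and 0.77.

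Some transcripts known to be induced during cell isolation were also called higher in the adult, and a few were called lower. The shares of all genes were 6.56% higher and 10.7% lower in corpus callosum, and 4.05% and 6.15% in cortex. Of 25 immediate early genes, which are transcribed within minutes of many stimuli, 12 rose and 1 fell in adult corpus callosum, and 13 rose and 1 fell in adult cortex. Those that fell were the early growth response gene Egr2 in corpus callosum (-1.22 ± 0.20, adjusted p 0.000248) and the growth regulator gene Myc in cortex (-0.69 ± 0.14, adjusted p 0.00326). At P7, Egr2 was higher in corpus callosum than in cortex, with means of 7.92 and 6.73 (adjusted p 0.00658, limma). Fos, a subunit of the AP-1 factor, averaged 8.37 in adult and 6.62 in P7 corpus callosum (1.74 ± 0.25, adjusted p 6.43e-05) and 8.27 in adult and 6.68 in P7 cortex (1.59 ± 0.25, adjusted p 0.000253). Jun, its partner, rose by 1.72 ± 0.25 (adjusted p 7.01e-05) and 1.49 ± 0.25 (adjusted p 0.00045), and the antiproliferative gene Btg2 by 2.62 ± 0.27 (adjusted p 1.35e-06) and 2.28 ± 0.27 (adjusted p 9.63e-06). The list mean lay between 7.93 and 7.98 on the adult corpus callosum arrays, against 7.10 to 7.41 at P7, and between 7.79 and 8.26 on the adult cortex arrays, against 6.98 to 7.32 at P7. At P3 it ran from 6.91 to 7.50 over both regions, so every adult array lay above every P3 and P7 array.

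A second list of 14 NF-kB targets and cytokines known from isolated microglia moved in part. In adult corpus callosum 5 rose and 2 fell, and in adult cortex 4 rose and 0 fell. The 2 that fell are near the 10.7% of all genes called lower there. On the higher side the shares of all genes were 6.56% and 4.05%. Rgs1, a regulator of G protein signalling, rose by 2.87 ± 0.31 (adjusted p 2.55e-06) and 2.79 ± 0.31 (adjusted p 4.52e-06), and the cytokine gene Il1a by 1.54 ± 0.19 (adjusted p 1.44e-05) and 1.03 ± 0.19 (adjusted p 0.0013). The chemokine gene Ccl3 (-1.58 ± 0.28, adjusted p 0.000437) and the surface protein gene Cd83 (-0.86 ± 0.15, adjusted p 0.000294) fell in adult corpus callosum. At P7, Ccl3 was higher in corpus callosum than in cortex, with means of 11.35 and 9.95 (adjusted p 0.0267, limma).

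On single arrays the lists and Hspa1a went together in some groups and differed in others. In adult cortex the immediate early means were 8.26, 7.79 and 7.90 for replicates 1, 2 and 3. The Hspa1a levels there, 8.65, 7.67 and 8.52, had the same order. Adult corpus callosum replicate 1 had an immediate early mean of 7.93, close to the 7.96 and 7.98 of replicates 2 and 3, but an Hspa1a level of 6.26, against 8.37 and 8.11. P3 corpus callosum replicate 3 had a mean of 7.80 over the NF-kB and cytokine list, within the adult range of 7.56 to 7.84, and an Hspa1a level of 4.78.

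With the immediate early mean of each array as a covariate, Hspa1b still passed between adult and P7 in both regions, at 2.05 (adjusted p 0.00882) and 2.45 (adjusted p 0.00818). Hspa1a was at 2.38 in corpus callosum (adjusted p 0.0484) and at 2.83 in cortex, where it no longer passed (adjusted p 0.0551). In this fit the slope of the covariate comes from deviations of arrays within groups. The covariate did not overlap between adult and P7, so the adjusted differences extrapolate that slope over a gap. They do not separate age from cell isolation. Some differences became smaller, while Hspa5 changed sign to -0.23 in both regions and Hsph1 in cortex was -0.46, against -0.068 without it. Over all genes the calls fell to 1828 in corpus callosum and 809 in cortex, against 3822 and 2264 without it. One isolation protocol is recorded for all samples, and the sources used here give neither its duration nor its temperature. The part of cell isolation in the higher Hspa1a and Hspa1b levels of the adult was not tested.

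**Figure D4:**
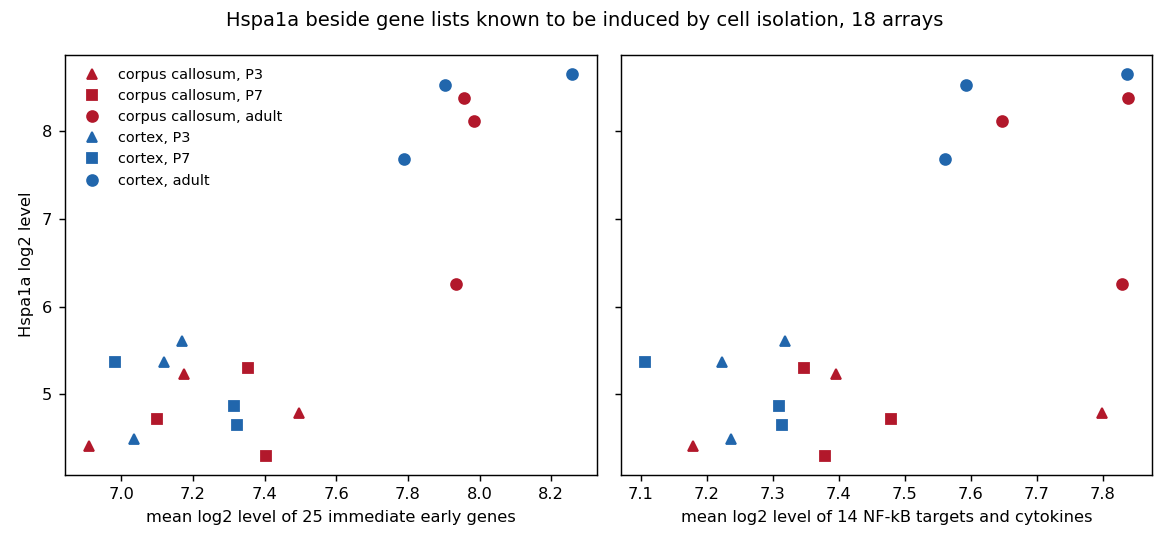
Hspa1a level (y axis, log2 units) on each of 18 arrays against the mean log2 level of 25 immediate early genes (left, x axis) and of 14 NF-kB targets and cytokines (right, x axis), with colour for region and marker shape for age. On the left all adult arrays lie at 7.79 or more and all P3 and P7 arrays at 7.50 or less, and the adult corpus callosum array at an Hspa1a level of 6.26 stands below the other adult arrays.

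Markers of other cells moved with age too. Beside them, 6.56% of all genes were called higher and 10.7% lower in adult corpus callosum, and 4.05% and 6.15% in adult cortex. Of 6 border macrophage markers, 3 were called lower in adult corpus callosum and 2 in adult cortex, and none higher. The mean of the 6 lay between 5.48 and 5.59 in adult corpus callosum, against 6.81 to 7.12 at P7, and between 5.41 and 5.61 in adult cortex, against 6.46 to 6.82 at P7. Mrc1, the mannose receptor gene that marks them, averaged 6.13 in adult and 10.57 in P7 corpus callosum, whereas Cd163 averaged 4.65 and 4.59. Of 7 microglial identity genes, 6 rose in corpus callosum and 4 in cortex. Of 6 monocyte markers, 1 rose and 2 fell in each region. None passed among markers of neutrophils, lymphocytes and oligodendrocyte precursors. Of 9 neuron markers, 3 were called lower in adult cortex and 0 in adult corpus callosum. Of 6 astrocyte markers, 2 were called higher in adult cortex and 1 in adult corpus callosum. The astrocyte mean lay between 5.54 and 5.77 in adult cortex, against 5.22 to 5.40 at P7. Of 6 oligodendrocyte markers 1 was called lower in adult corpus callosum, and of 7 vessel cell markers 1 was called higher in adult cortex. Array levels have no zero, so an absent marker shows only as a low level. In sorted cells measured in bulk, a change in the share of a cell type and a change of RNA per cell cannot be told apart, and the part of these shifts in the heat shock results was not tested.

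Within groups, several members deviated together from array to array. The correlation of the deviations from group means over the 18 arrays was r = 0.75 for Dnajb1 and Hspa8, r = 0.74 for Hsp90aa1 and Hspa8 and r = 0.70 for Hsph1 and Hspa5, against r = 0.64 for Hspa1a and Hspa1b and r = -0.15 for Hspa1a and Hspa5. These are descriptions over arrays that share a sample preparation.

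The genes most like the mean of Hspa1a, Hspa1b, Dnajb1 and Hsph1 over the 18 arrays were the interferon receptor gene Ifnar2 (r = 0.96), the uroplakin gene Upk1b (r = 0.95), the AP-1 gene Fosb (r = 0.95), the chromatin regulator gene Kmt2e (r = 0.95) and the protease gene St14 (r = 0.94). As deviations from group means, r was 0.79 for Fosb, 0.605 for Ifnar2, 0.595 for St14, 0.489 for Kmt2e and 0.29 for Upk1b. Hsph1 itself had r = 0.135 with Hspa1a and r = 0.126 with Hspa1b over the 18 arrays. Fosb averaged 7.50 in adult and 5.77 in P7 cortex (1.73 ± 0.23, adjusted p 3.78e-05). The genes most like Hspa5 were Gopc, Galnt4, Spty2d1, Rgmb and the tetraspanin gene Cd81, with r between 0.90 and 0.94 over all arrays. As deviations from group means their r lay between 0.585 (Rgmb) and 0.789 (Cd81).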

How the data were processed

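The deposited values are log2 levels per probe set, made by the authors with RMA, per the submitters' processing notes. RMA subtracts background, makes the arrays alike and combines probes. The sources used here give neither its version nor whether all arrays were normalized together. The base of the logarithm was taken as 2 from the range of the values, 0.87 to 13.8. Of 41345 probe sets, 23521 had 1 gene symbol in GEO's platform annotation, 1814 several and 16010 none. Genes were read from their brightest probe set of 1 symbol. All 18 arrays entered a linear model with a mean per group in limma 3.58.1 (R 4.3.3; lmFit, contrasts.fit, eBayes), with 12 residual degrees of freedom. Tests were two-sided, with Benjamini-Hochberg adjustment over 22180 genes and a threshold of 0.05, and the fit was tested on simulated data. No adjusted p over a list alone is given. All members were described in every comparison, and of each other list up to 3 called genes per direction were named, with Bag3, Hsf2, Hsp90b1, Hspd1, Fos and Jun in any case; other gene names and motifs were added after values were seen. The members and lists were chosen with earlier results of these data known. RMA hides a change in total RNA, and 3 arrays per group limit the precision.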

Additional observations from a re-analysis of the deposited data

How the results depend on the processing

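Hspa1b passed between adult and P7 under all 28 alternatives that tested it and Hspa1a under all but 1 of 30, the covariate of immediate early genes in cortex, which left 1 member called there (2.83, adjusted p 0.0551, range over alternatives 2.13e-06 to 0.0551). Testing only genes above the median level left 1 member called in corpus callosum, because Hspa1b lies below that median and was not tested. Dnajb1 passed in cortex after quantile normalization (0.59), among genes above the median or with a trend in the variance or with the groups compared alone (0.54 each), with array weights (0.49) and without both adult replicate 1 arrays (0.54), an alternative chosen after seeing the data. In corpus callosum it passed with weights (0.46) and without adult replicate 1 (0.62); leaving out single arrays gave 0.21 to 0.62. Between P7 and P3, 1 member, Hspa5, was called in corpus callosum among genes above the median, with a trend (0.66 in both) and with weights (0.72), and in cortex with weights (1 member, 0.62); leaving out single arrays gave 0 to 1 members and 0.54 to 0.83 in corpus callosum. The causes of these changes, apart from the smaller number of genes or arrays tested, were not tested.

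Over 80 member differences and 1294 alternative values the sign changed 150 times, never in a value that passed. Between adult and P7 in corpus callosum, Hsp90aa1 turned to 0.077 after quantile normalization, 0.014 with the covariate and 0.034 without both adult replicate 1 arrays (single arrays left out, -0.15 to 0.034), Hspb1 to 0.19 with probe sets averaged, 0.017 with weights, 0.13 with the covariate and 0.016 without both arrays (-0.36 to 0.077), Hspa5 to -0.23 with the covariate, and Hspa8 to 0.0070 without both arrays (-0.14 to 0.0070). In cortex, Hspa8 turned to 0.025, 0.0014, 0.021 and 0.041 after quantile normalization, with weights, with the covariate and without both arrays (-0.049 to 0.041), Hspb1 to 0.20 with probe sets averaged and 0.23 with the covariate (-0.23 to 0.16), Hsp90aa1 to 0.0097 and Hspa5 to -0.23 with the covariate, and Hsph1 ranged from -0.18 to 0.013 over single arrays left out. Between regions, Hspa1a at P7 ranged from -0.45 to 0.049 and Hsp90aa1 in the adult from -0.038 to 0.17, and Hspa1a in the adult was 0.14 without both arrays. The difference of its regional difference in the adult from that at P7 was 0.33 without both arrays and ranged from -0.91 to 0.15. Same-numbered arrays of the regions deviated together with r between 0.016 and 0.30. In every pair but P3 replicate 1 this was above the highest r to a cortex array of another number. For adult replicate 1 the values were 0.30 against -0.21, and for P7 replicate 3 they were 0.049 against 0.048. Whether same numbers mark paired samples cannot be told from the labels, and the main fit left the arrays unpaired. The replicate number was also fitted as a block, within each age for regional comparisons and interactions, and across ages for comparisons of ages. With these blocks, 2 members were called between adult and P7 in each region and 0 in every other comparison, as without them.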
